A study of Mus musculus with 20 samples.

Results

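The 10 genes described here encode the 5 enzymes of the hepatic urea cycle (Cps1, Otc, Ass1, Asl and Arg1), 3 enzymes of amino acid breakdown that are typical of periportal hepatocytes (Gls2, Hal and Sds), and 2 further periportal markers (Cyp2f2 and Cdh1). They were chosen by gene symbol from the 22298 genes listed in each of 20 libraries, each symbol matched a single entry, and all 10 passed the filter on low counts, so none is left out of the tests. The libraries were made from poly(A) RNA of whole liver. All mice were male and Lepr db/db, a leptin receptor mutant used as a model of obesity with diabetes. An AAV8 vector was given by tail vein injection at an age of 5 weeks and carried a non-targeting shRNA (AAV8-Vec) or a 4-in-1 set of shRNAs against Pparg (AAV8-PPARγ-shRNA). They were then gavaged daily for 4 weeks with the vehicle CMC-Na or with 25 mg per kg of benzbromarone (BBR), a uricosuric drug used against gout, and tissue was taken after a fast of 6 h. This makes 4 groups of 5 mice, called Vec, Vec+BBR, shRNA and shRNA+BBR. All 4 groups share the Lepr db/db genotype and an AAV8 vector, and lean or uninjected mice were not analysed here. The labels give the tissue and the treatment, while the genotype and the vectors come from the study's methods, and the promoter that drives the shRNAs is not given in the sources used here.

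The urea cycle converts ammonia, which is toxic, into urea. Cps1 and Otc act in the mitochondrion and make carbamoyl phosphate and citrulline, and Ass1, Asl and Arg1 act in the cytosol, join citrulline with aspartate, split the product and release urea. In liver the cycle runs mainly in periportal hepatocytes, the cells around the portal vein that receive amino acids from the gut first, while the pericentral hepatocytes around the central vein capture the ammonia that is left by making glutamine. The pathway is known to be raised by glucagon, glucocorticoids and protein breakdown during fasting. Gls2 is the liver-type glutaminase that releases ammonia from glutamine beside Cps1, Hal starts the breakdown of histidine, and Sds splits serine into pyruvate and ammonia. Cyp2f2, a cytochrome P450, and Cdh1, the adhesion protein E-cadherin, mark the same zone without a part in nitrogen metabolism. Cdh1 is also a gene of bile duct cells.

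On GRCm38 (GENCODE M21) the urea cycle genes are Cps1 (ENSMUSG00000025991, chr1:67123026-67231259, plus strand), Otc (ENSMUSG00000031173, chrX:10252305-10321024, plus), Ass1 (ENSMUSG00000076441, chr2:31470207-31520672, plus), Asl (ENSMUSG00000025533, chr5:130011258-130029247, minus) and Arg1 (ENSMUSG00000019987, chr10:24915221-24927484, minus). The enzymes of amino acid breakdown are Gls2 (ENSMUSG00000044005, chr10:128194457-128210004, plus), Hal (ENSMUSG00000020017, chr10:93488768-93519304, plus) and Sds (ENSMUSG00000029597, chr5:120476526-120483932, plus). Cyp2f2 (ENSMUSG00000052974) is at chr7:27119909-27133660 and Cdh1 (ENSMUSG00000000303) at chr8:106603351-106670246, both on the plus strand. All 10 are annotated as protein coding, and the values below are sums over whole genes.

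Promoter sequences in the RefSeq table (GRCm38.p6) were matched for 4 of the 10 genes, Otc, Ass1, Hal and Cyp2f2. These are shown because the others were not matched, and they were not chosen by their response. Ass1 and Hal passed a test of BBR below, while Otc and Cyp2f2 did not in any comparison. Each stretch ends at the base before the first annotated start and runs 5′ to 3′ on the plus strand, at chrX:10252055-10252304 for Otc, chr2:31470020-31470206 for Ass1, chr10:93488518-93488767 for Hal and chr7:27119705-27119908 for Cyp2f2. Capitals mark matches to the 5 motifs searched on both strands.
Otc: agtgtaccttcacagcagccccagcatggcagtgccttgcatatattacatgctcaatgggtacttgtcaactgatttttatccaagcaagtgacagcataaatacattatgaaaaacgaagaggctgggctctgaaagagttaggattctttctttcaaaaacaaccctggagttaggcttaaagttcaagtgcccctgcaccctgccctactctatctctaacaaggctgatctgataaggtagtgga
Ass1: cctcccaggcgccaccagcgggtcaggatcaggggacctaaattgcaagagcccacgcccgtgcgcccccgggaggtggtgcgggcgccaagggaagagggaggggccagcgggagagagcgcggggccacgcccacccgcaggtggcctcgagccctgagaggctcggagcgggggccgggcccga
Hal: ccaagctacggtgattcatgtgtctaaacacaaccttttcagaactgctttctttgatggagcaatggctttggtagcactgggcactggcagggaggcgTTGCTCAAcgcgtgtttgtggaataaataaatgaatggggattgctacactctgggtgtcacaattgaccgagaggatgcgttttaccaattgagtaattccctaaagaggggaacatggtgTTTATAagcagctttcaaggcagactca
Cyp2f2: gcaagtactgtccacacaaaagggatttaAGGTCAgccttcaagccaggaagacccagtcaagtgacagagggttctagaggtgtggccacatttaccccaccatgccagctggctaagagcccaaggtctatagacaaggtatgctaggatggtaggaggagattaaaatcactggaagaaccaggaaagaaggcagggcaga
The motifs were TGACG (the core of the CREB site), TTGCNNAA (C/EBP), AGGTCA (nuclear receptors), AGAACA (glucocorticoid receptor) and TATAAA. Hal held a C/EBP match at position -150 and, on the opposite strand, a TATAAA match at -28 from its RefSeq start, and windows of that length held these motifs in 9.56% and 12.4% of all 32851 promoters of the table. Cyp2f2 held AGGTCA at -221, a motif found in 11.6% of windows of its length. No match overlapped another. The Ass1 stretch had a GC content of 75.4%, against 43.6% in Otc, 45.6% in Hal and 50% in Cyp2f2, and neither Ass1 nor Otc held any of the 5 motifs in the bases shown. A match is a description of the letters and no site.

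Before the genes themselves, the knockdown and the libraries were checked. Pparg stood at 16.4, 20.1, 35.9, 19.4 and 32.1 CPM (counts scaled to a common library total with TMM factors) in Vec replicates 1 to 5 and at 7.31, 6.53, 5.96, 3.24 and 5.63 CPM in the shRNA mice. It stood at 34.8, 29.8, 28.0, 28.1 and 38.3 CPM in Vec+BBR and at 11.4, 9.99, 21.8, 18.9 and 7.19 CPM in shRNA+BBR. Every shRNA mouse thus lay below every Vec mouse, and every shRNA+BBR mouse below every Vec+BBR mouse (log2 fold changes -2.12 ± 0.28 and -1.20 ± 0.26, fit ± SE, adjusted p = 4.5e-05 and 0.0084, edgeR quasi-likelihood test). The knockdown was partial under BBR. Pparg was higher in shRNA+BBR than in shRNA (log2 fold change 1.28, edgeR adjusted p = 0.0077). In shRNA+BBR replicates 3 and 4, Pparg lay inside the range of the Vec mice. Total counts ran from 17432904 to 25024099 per library, and the 10 genes took between 0.709% and 1.57% of them. Mitochondrial genes took 9.14% to 10.8% in Vec, 9.96% to 13.8% in Vec+BBR and 9.90% to 12.3% in shRNA. In shRNA+BBR they took 10.2% to 16.2%, most in replicates 2 (16.2%) and 3 (14.6%). The part of this in the values below was not tested. Markers of hepatocytes such as Alb (109728 ± 9263 CPM in Vec, mean ± SD, n = 5) were high in all 20 libraries. The Vec libraries were less alike than those of the other groups, with a mean correlation with their own group of 0.970 to 0.977 against 0.979 to 0.986 elsewhere. Vec replicates 3 and 5 carried the highest Pparg of their group, and replicate 3 was the lowest Vec mouse for 8 of the 10 genes, so the counts of the 10 genes and of the gene lists that rest on Vec are also given without these libraries where they changed.

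The genes differed widely in level. In FPKM, the deposited unit that divides by gene length and so allows genes to be compared, Ass1 led in Vec with 2302 ± 811 (mean ± SD, n = 5 here and for every group below), followed by Arg1 with 1034 ± 125. Cyp2f2 at 540 ± 56.7, Cps1 at 505 ± 206 and Asl at 473 ± 123 FPKM followed, and neighbours in this trio overlapped and changed places in 2 of 5 mice. Sds (269 ± 113 FPKM) and Gls2 (246 ± 94.7 FPKM) overlapped as well, ahead of Otc (145 ± 16.4 FPKM) and Hal (88.4 ± 24.1 FPKM). Cdh1 was far lower at 0.608 ± 0.169 FPKM, a level that rests on 31 to 114 counts per library, while the lowest of the other 9 genes had at least 3425 counts in every library. The order shifted with BBR. In Vec+BBR, Ass1 (1195 ± 121 FPKM) overlapped Arg1 (979 ± 84.3 FPKM), although it was still the higher of the pair in all 5 mice, and Cps1 (258 ± 35.3 FPKM) lay below Cyp2f2 (648 ± 53.1 FPKM). In shRNA, Cps1 (682 ± 34.0 FPKM) followed Arg1, with Cyp2f2 at 611 ± 42.6 FPKM overlapping it. In shRNA+BBR the order was Ass1 (1904 ± 475), Arg1 (1082 ± 87.3), Cyp2f2 (499 ± 108), Asl (465 ± 89.9), Cps1 (372 ± 127), Sds (309 ± 99.4), Gls2 (166 ± 34.4), Otc (137 ± 15.98), Hal (67.0 ± 17.9) and Cdh1 (0.640 ± 0.336 FPKM). Within genes, the spread between mice also differed by group. Cps1 varied 3.28-fold between the highest and lowest Vec mouse but 1.10-fold between the shRNA mice, and Ass1 varied 2.48-fold and 1.34-fold.

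**Figure D1:**
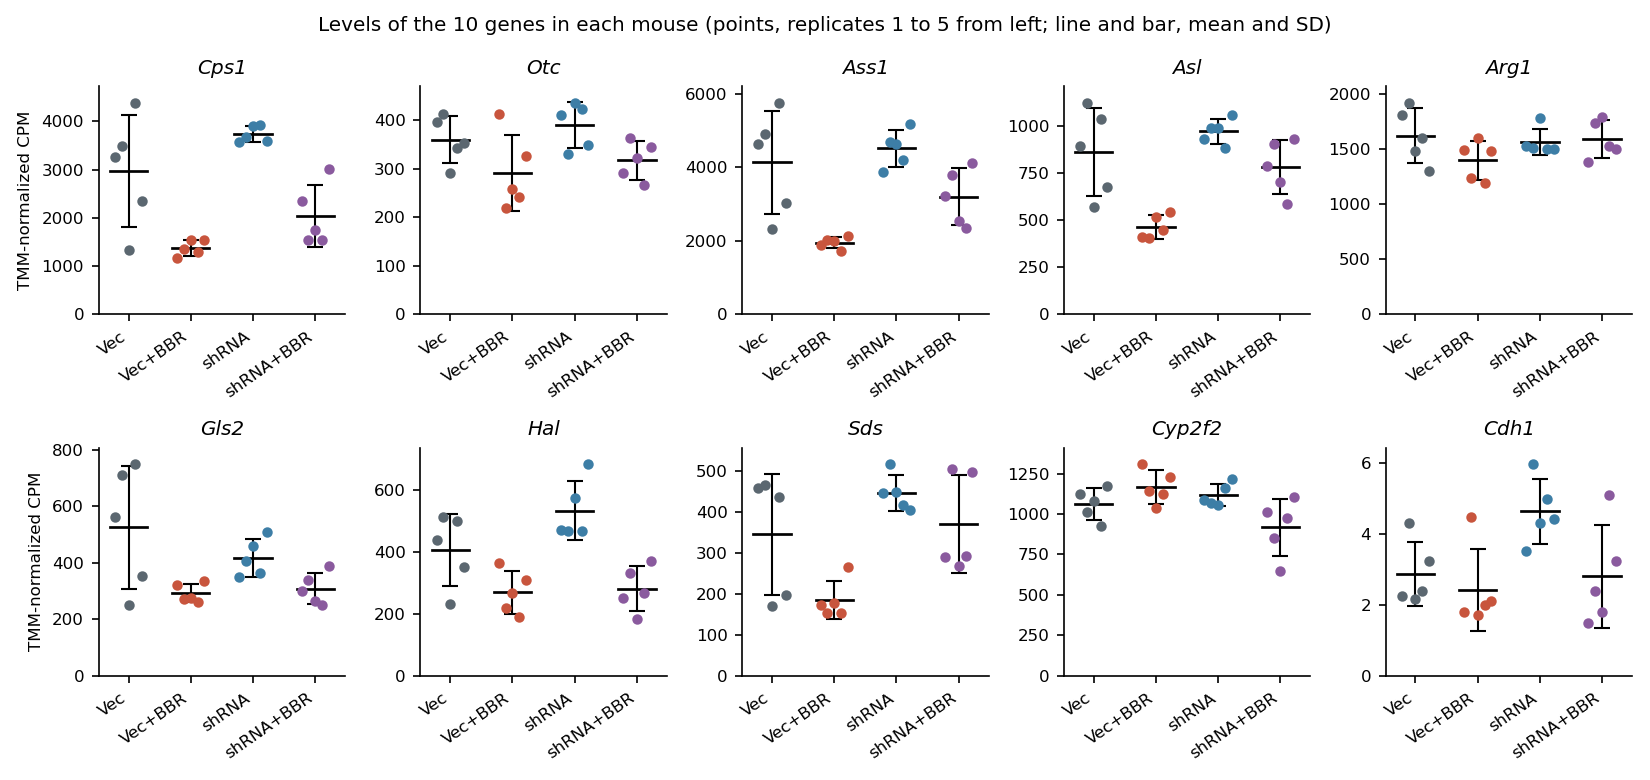
Levels of the 10 genes in TMM-normalized CPM, on axes that start at 0, with a point for each mouse (replicates 1 to 5 from left to right within a group) and a line and bar for the mean and SD of 5 mice. For Ass1 and Asl every Vec+BBR mouse lies below every Vec mouse, and for Sds the Vec mice fall into 3 high and 2 low values.

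The first comparison, Vec+BBR against Vec, asks what BBR did in mice with working PPARγ. Cps1, Ass1 and Asl of the urea cycle and Gls2 and Sds of amino acid breakdown fell, each to between 0.465 and 0.559 of its Vec level, while Otc, Arg1, Hal, Cyp2f2 and Cdh1 did not pass the test. Thus 5 of the 10 genes were lower and 0 higher, beside 7.88% of all 12342 genes tested that were lower, 7.58% that were higher and 15.5% called in either direction. Of the 1908 genes called, 936 were higher, and with libraries scaled by total counts alone 1831 of 2290 were, while the same count of 5 of the 10 genes was lower. The median log2 fold change was -0.71 over the 10 genes and -0.01 over all genes tested. The summed level of the 5 urea cycle genes was 9938 ± 2970 CPM in Vec and 5487 ± 479 CPM in Vec+BBR. In RNA of whole tissue, fewer cells of a type and less RNA per cell cannot be told apart.

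Cps1, which takes up ammonia in the first step, stood at 3262, 3482, 1337, 4382 and 2347 CPM in Vec replicates 1 to 5 and at 1157, 1347, 1549, 1297 and 1543 CPM in Vec+BBR. The groups overlapped through Vec replicate 3, which lay among the BBR mice, and the other Vec mice were all higher. Its log2 fold change was -1.10 ± 0.23 (fit ± SE, adjusted p = 0.0029, edgeR quasi-likelihood test), and an exact permutation test of the means gave p = 0.0317 (two-sided, 0.0907 after adjustment over 40 tests). Ass1, which joins citrulline and aspartate, stood at 4647, 4904, 2319, 5753 and 3033 CPM in Vec and at 1887, 2008, 2008, 1729 and 2133 CPM in Vec+BBR. Here the groups did not overlap, although Vec replicates 3 and 5 were again the lowest of theirs. The log2 fold change was -1.08 ± 0.20 (edgeR, adjusted p = 0.0012). Asl, which splits argininosuccinate into arginine and fumarate, stood at 894, 1124, 573, 1037 and 677 CPM in Vec and at 408, 403, 519, 446 and 541 CPM in Vec+BBR, again without overlap and with the same pair of Vec mice lowest. Its log2 fold change was -0.89 ± 0.16 (adjusted p = 0.0011 in edgeR). For Ass1 and Asl the exact permutation p was 0.0079, the smallest that 5 against 5 mice allow, and 0.0454 after adjustment. Groups that did not overlap, with Vec+BBR the lower, made up 4.24% of all genes, those with Vec+BBR the higher 4.70%, and both 8.94%.

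Both other urea cycle genes lay closer to their Vec level. Otc, the mitochondrial enzyme that makes citrulline, ranged from 292 to 414 CPM in Vec and from 218 to 413 CPM in Vec+BBR. Arg1, which releases urea from arginine, ranged from 1304 to 1920 CPM in Vec and from 1194 to 1599 CPM in Vec+BBR. In both genes the groups overlapped. The log2 differences were -0.30 for Otc (95% interval -0.61 to 0.00, edgeR adjusted p = 0.17) and -0.21 for Arg1 (-0.45 to 0.02, adjusted p = 0.21). The intervals do not reach the estimates of Cps1, Ass1 or Asl, but the differences between these genes were not tested.

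Of the enzymes of amino acid breakdown, Gls2 stood at 563, 709, 251, 747 and 352 CPM in Vec and at 321, 272, 275, 262 and 335 CPM in Vec+BBR. Vec replicate 3 lay below every BBR mouse, and the other 4 Vec mice lay above them all. The log2 fold change of Gls2 was -0.84 ± 0.22 (adjusted p = 0.0127 in edgeR, and 0.0714 in the exact permutation test, 0.143 after adjustment). The call was lost when only the 2 groups compared were fitted (edgeR, adjusted p = 0.0530). Sds stood at 457, 464, 169, 436 and 196 CPM in Vec and at 173, 153, 176, 153 and 265 CPM in Vec+BBR. Vec replicates 3 and 5 fell within the range of the BBR mice, and BBR replicate 5 was the highest of its group. Sds fell by 0.90 ± 0.26 (edgeR, adjusted p = 0.0215), with an exact permutation p of 0.0714. The call was lost without Vec replicate 1, 2 or 4 or without Vec+BBR replicate 2 or 4. It was also lost when only the 2 groups compared were fitted (edgeR adjusted p up to 0.0705 over all alternatives). Hal stood at 438, 511, 230, 500 and 350 CPM in Vec and at 363, 220, 266, 189 and 311 CPM in Vec+BBR, with overlapping groups. Its log2 difference was -0.59 ± 0.21 (edgeR, adjusted p = 0.0665), and -0.75 (adjusted p = 0.0109) without Vec replicate 3.

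Of the periportal markers outside nitrogen metabolism, Cyp2f2 ranged from 924 to 1174 CPM in Vec and from 1034 to 1306 CPM in Vec+BBR, a log2 difference of 0.13 (95% interval -0.10 to 0.37, edgeR adjusted p = 0.46). Cdh1 ranged from 2.16 to 4.31 CPM in Vec and from 1.71 to 4.48 CPM in Vec+BBR, a log2 difference of -0.23 with a wide interval of -0.88 to 0.42 (adjusted p = 0.67). The groups overlapped in both genes.

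Leaving out the pair of low Vec libraries moved these estimates away from 0. Without Vec replicate 3, the log2 fold changes were -1.297 for Cps1, -1.24 for Ass1, -1.02 for Asl, -1.02 for Gls2 and -1.09 for Sds. Without Vec replicates 3 and 5 together they were -1.44, -1.39, -1.14, -1.21 and -1.31, Arg1 (-0.35, edgeR adjusted p = 0.0296) and Hal (-0.85, 0.0054) passed as well, and 7 of the 10 genes were called, beside 23.6% of all genes. These libraries were singled out with the values of the 10 genes in view, so the larger changes are no independent support.

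**Figure D2:**
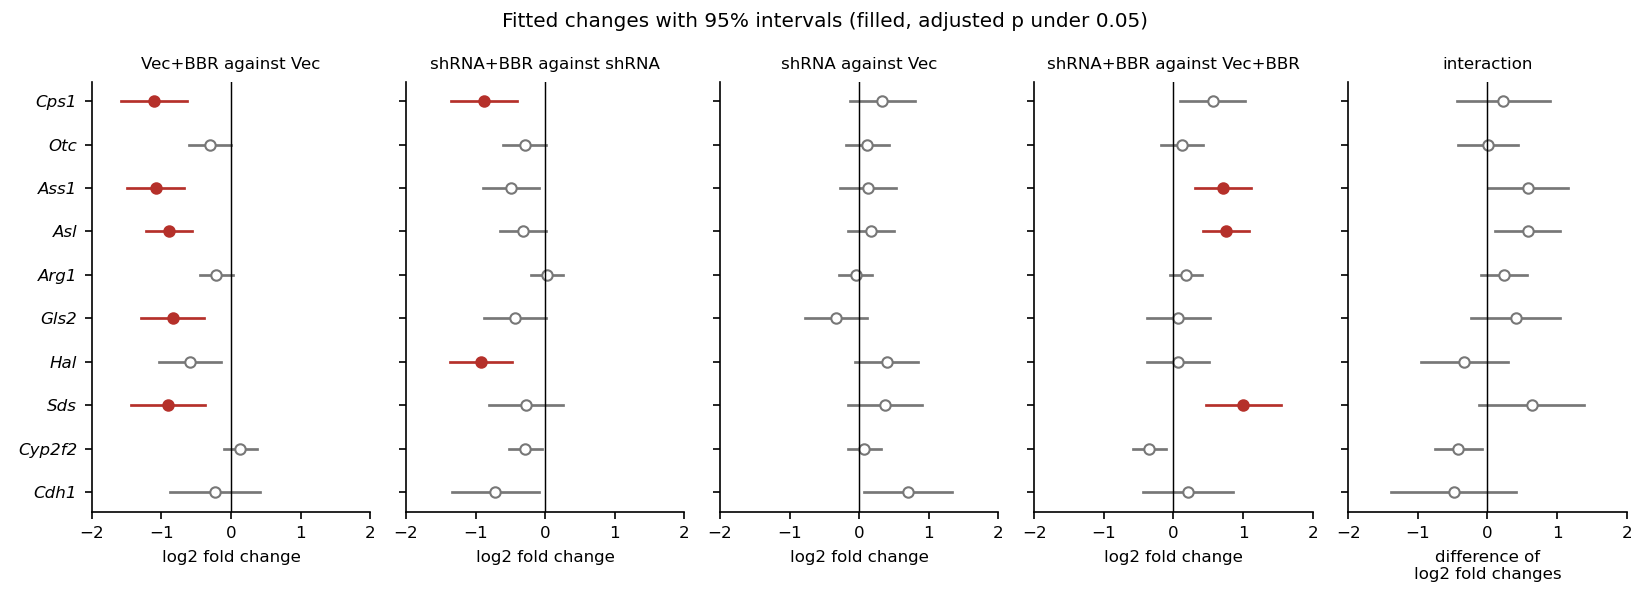
Fitted log2 fold changes of the 10 genes with 95% intervals in the 4 comparisons, and in the last panel the BBR effect with knockdown minus the BBR effect without it. Filled points have an adjusted p under 0.05 in edgeR. There are 5 to the left of 0 in the first panel, 2 in the second, none in the third, 3 to the right of 0 in the fourth and none in the last.

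In mice given the Pparg shRNAs, shRNA+BBR against shRNA, Cps1 and Hal fell to 0.546 and 0.528 of their level and the other 8 genes did not pass. Thus 2 of 10 genes were lower and 0 higher, beside 7.28% of all genes tested that were lower, 8.37% that were higher and 15.7% called in either direction. The median log2 fold change was -0.37 over the 10 genes and 0.01 over all genes. The summed level of the urea cycle genes was 11172 ± 594 CPM without BBR and 7933 ± 1371 CPM with it.

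Cps1 stood at 3569, 3665, 3912, 3916 and 3598 CPM in shRNA replicates 1 to 5 and at 2348, 1540, 1742, 1549 and 3006 CPM in shRNA+BBR. The shRNA mice lay close together, and all 5 were above every shRNA+BBR mouse, of which replicates 1 and 5 were the highest. The log2 fold change was -0.87 ± 0.23 (edgeR, adjusted p = 0.0170), with an exact permutation p of 0.0079, and the call was lost without shRNA+BBR replicate 3 (adjusted p = 0.0551). Hal stood at 471, 468, 575, 467 and 682 CPM in shRNA and at 251, 333, 184, 268 and 371 CPM in shRNA+BBR, also without overlap. Its log2 fold change was -0.92 ± 0.22 (adjusted p = 0.0109 in edgeR) and passed in all 18 alternatives. Groups without overlap, with shRNA+BBR the lower, made up 5.58% of all genes, those with shRNA+BBR the higher 5.79%, and both 11.4%.

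Ass1 stood at 3867, 4701, 4624, 4193 and 5186 CPM in shRNA and at 3232, 3788, 2535, 2349 and 4120 CPM in shRNA+BBR. Asl stood at 930, 993, 992, 886 and 1057 CPM in shRNA and at 790, 903, 701, 586 and 933 CPM in shRNA+BBR. In both genes replicates 3 and 4 were the lowest of the shRNA+BBR mice and replicates 2 and 5 the highest. Both of the latter lay inside the range of the shRNA mice for Asl, and only replicate 5 did for Ass1. The log2 differences of -0.49 (95% interval -0.90 to -0.09) for Ass1 and -0.31 (-0.64 to 0.02) for Asl did not pass (edgeR, adjusted p = 0.0843 and 0.17).

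Gls2 stood at 351, 404, 458, 363 and 509 CPM in shRNA and at 299, 339, 265, 251 and 387 CPM in shRNA+BBR, and the shRNA+BBR mice stood in the same order as for Ass1 and Asl. Its log2 difference was -0.44 (-0.89 to 0.01, edgeR adjusted p = 0.16). Sds stood at 445, 515, 448, 416 and 404 CPM in shRNA and at 290, 503, 268, 291 and 497 CPM in shRNA+BBR. Replicates 2 and 5 lay among the shRNA mice and the other 3 well below, and the log2 difference was -0.27 with an interval of -0.80 to 0.26 (edgeR, adjusted p = 0.48). In the shRNA+BBR group the 2 mice with the most Pparg, replicates 3 and 4, were also those with the least Ass1, Asl and Gls2, and the 2 with the least Pparg, replicates 2 and 5, those with the most Ass1, Asl, Gls2 and Sds. Cps1 did not follow this order, since replicate 2 was its lowest mouse and replicates 5 and 1 its highest, and for Hal replicates 3 and 1 were the lowest. This was seen after the values were known and was not tested.

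Otc ranged from 331 to 436 CPM in shRNA and from 266 to 364 CPM in shRNA+BBR, a log2 difference of -0.30 (95% interval -0.60 to 0.01), the same size as with the control vector. Arg1 ranged from 1500 to 1782 CPM and from 1387 to 1797 CPM, a difference of 0.02 (-0.21 to 0.26). Cyp2f2 ranged from 1055 to 1218 CPM in shRNA and from 649 to 1106 CPM in shRNA+BBR, a difference of -0.28 (-0.52 to -0.04, edgeR adjusted p = 0.0918). Cdh1 ranged from 3.52 to 5.97 CPM and from 1.5025 to 5.11 CPM, a difference of -0.72 (-1.34 to -0.09, adjusted p = 0.10). None of the 4 passed, and their groups overlapped.

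The third comparison, shRNA against Vec, asks what the knockdown did without BBR. None of the 10 genes passed in edgeR, beside 13.2% of all genes tested, 5.28% higher and 7.91% lower (652 of the 1628 called were higher, and 1098 of 1657 by total counts alone), and 1 of 10 had an unadjusted p under 0.05, namely Cdh1 at 4.64 ± 0.91 CPM in shRNA and 2.87 ± 0.91 CPM in Vec (log2 difference 0.70, 95% interval 0.07 to 1.33, edgeR adjusted p = 0.13). Neither DESeq2 nor limma-voom called any of the 10. The groups of all 10 genes overlapped, while 8.96% of all genes had groups that did not, 3.95% with shRNA the higher and 5.01% with it the lower, and the median log2 fold change was 0.15. The estimates were 0.33 for Cps1 (95% interval -0.14 to 0.80), 0.12 for Otc (-0.19 to 0.42), 0.13 for Ass1 (-0.28 to 0.53) and 0.18 for Asl (-0.15 to 0.50). Arg1 was at -0.05 (-0.29 to 0.18), and at 0.05 when libraries were scaled by total counts alone. Gls2 was at -0.33 (-0.78 to 0.12), Hal at 0.39 (-0.05 to 0.84), Sds at 0.37 (-0.16 to 0.90) and Cyp2f2 at 0.07 (-0.17 to 0.31). Without Vec replicates 3 and 5 the estimates of Ass1 (-0.17), Asl (-0.06) and Sds (-0.01) lay below 0, Cps1 was at 0.02, and Gls2 (-0.68, adjusted p = 0.0055) was called, 1 of 10 beside 10.9% of all genes.

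The fourth comparison, shRNA+BBR against Vec+BBR, sets the knockdown against the control vector among mice given BBR. Ass1, Asl and Sds were higher with knockdown and the other 7 genes did not pass. Thus 3 of 10 genes were higher and 0 lower, beside 3.31% of all genes tested that were higher, 4.82% that were lower and 8.13% called in either direction. The comparison shares its Vec+BBR and its shRNA+BBR mice with those above. Ass1 was 1.64-fold higher (1953 ± 153 CPM in Vec+BBR, 3205 ± 768 CPM in shRNA+BBR, log2 fold change 0.71 ± 0.20, edgeR adjusted p = 0.0272). Asl was 1.69-fold higher (464 ± 63.6 and 783 ± 144 CPM, 0.76 ± 0.16, adjusted p = 0.0066). Sds was 2.01-fold higher (184 ± 46.2 and 370 ± 119 CPM, 1.01 ± 0.26, adjusted p = 0.0198). In all 3 genes every shRNA+BBR mouse lay above every Vec+BBR mouse, which held for 3.28% of all genes, against 5.19% in the opposite direction and 8.48% in either, and the exact permutation p was 0.0079. Asl passed in all 18 alternatives. Sds was lost without Vec+BBR replicate 2 or 4 or shRNA+BBR replicate 2 or 5, and Ass1 without any of these or without Vec+BBR replicate 3 (edgeR adjusted p up to 0.0739 for Ass1 and 0.0605 for Sds).

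Cps1 was 1.48-fold higher as well, at 1379 ± 168 CPM in Vec+BBR and 2037 ± 634 CPM in shRNA+BBR, but did not pass (log2 difference 0.56, 95% interval 0.09 to 1.03, edgeR adjusted p = 0.13) and its groups overlapped. Gls2 (293 ± 32.6 and 308 ± 55.6 CPM) and Hal (270 ± 69.8 and 281 ± 73.1 CPM) lay within their spread of each other, with log2 differences of 0.07 (-0.38 to 0.52) and 0.06 (-0.38 to 0.51). Otc (0.12, -0.18 to 0.43) and Arg1 (0.18, -0.05 to 0.42) did not pass either. Cyp2f2 went the other way, at 1166 ± 104 CPM in Vec+BBR and 918 ± 176 CPM in shRNA+BBR (-0.34, -0.58 to -0.11), short of the threshold in edgeR (adjusted p = 0.0647) and past it in 3 of 18 alternatives.

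Whether the BBR effect itself differed between vectors was tested as an interaction, the BBR effect with knockdown minus that without. None of the 10 genes passed in edgeR, beside 0.146% of all genes tested, 0.0729% higher and 0.0729% lower (18 of 12342, of which 9 were higher, and 8 of 30 by total counts alone), and 3 of 10 had an unadjusted p under 0.05. These were Ass1 (0.59, 95% interval 0.02 to 1.16, adjusted p = 0.26), Asl (0.58, 0.11 to 1.05, adjusted p = 0.19) and Cyp2f2 (-0.42, -0.75 to -0.08, adjusted p = 0.19). Sds was at 0.64 with an interval of -0.12 to 1.39, Gls2 at 0.40 (-0.23 to 1.04) and Cps1 at 0.23 (-0.43 to 0.89). Hal was at -0.33 (-0.96 to 0.30) and Otc at 0.01 (-0.42 to 0.44). That Ass1, Asl, Gls2 and Sds were called without knockdown and not with it is therefore not shown to be a difference between the vectors. The same holds for Hal, which was called with knockdown and not without. DESeq2 and limma-voom also called none of the 10 for the interaction. Without Vec replicates 3 and 5, Ass1 (0.89, edgeR adjusted p = 0.0301), Asl (0.82, 0.0284), Gls2 (0.76, 0.0456) and Sds (1.03, 0.0468) passed, beside 2.64% of all genes, and leaving out either library alone gave no call.

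**Figure D3:**
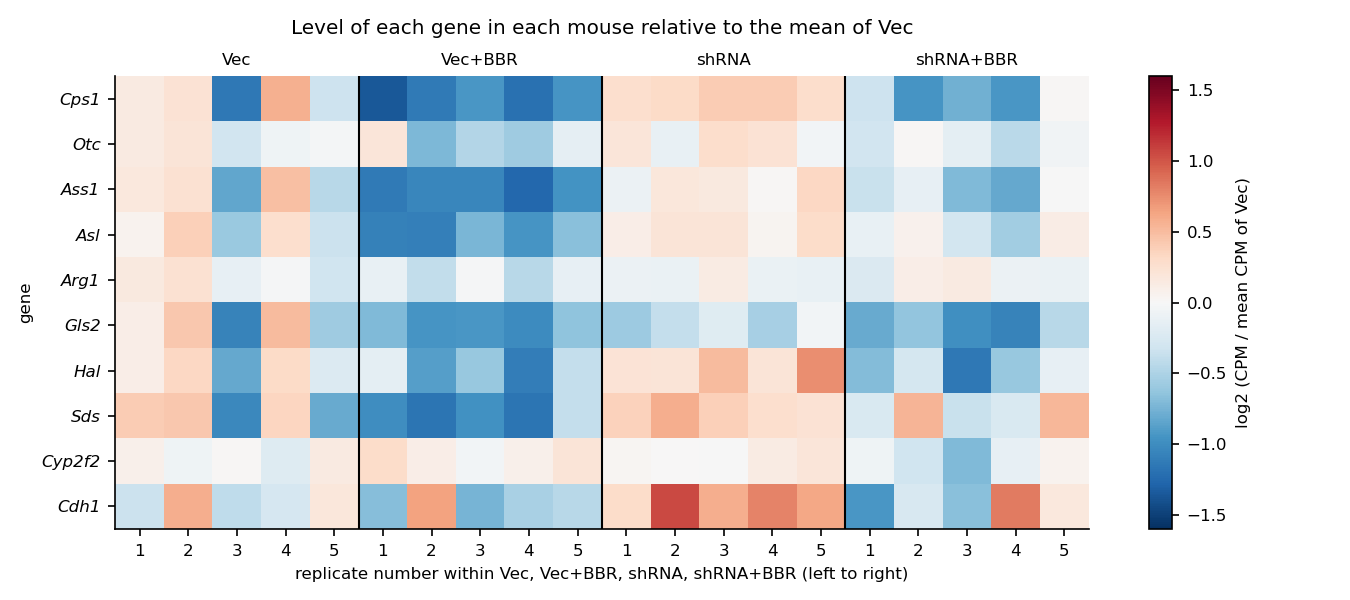
Level of each gene in each mouse as the log2 ratio of its CPM to the mean CPM of Vec (blue, lower; red, higher), with the 4 groups side by side and replicates 1 to 5 within each. Vec replicate 3 shows the blue of the Vec+BBR mice for Cps1, Ass1, Gls2, Hal and Sds, and the shRNA+BBR mice are mixed, with replicates 3 and 4 bluer than replicates 2 and 5 for Ass1, Asl and Gls2.

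Between mice of the same group, 6 of the genes moved together. With the group means removed, the correlations of log2 CPM among Cps1, Ass1, Asl, Gls2, Sds and Hal lay between 0.588 and 0.946 over the 20 libraries, with a median of 0.829 over 15 pairs. Ass1 and Gls2 were the most alike (0.946), and Cps1 and Hal the least (0.588). Otc and Arg1 followed less closely, with medians of 0.368 and 0.410 over the other 9 genes, and were most alike with Hal (0.603) and with Otc (0.564) respectively. Cyp2f2 (median 0.0388) and Cdh1 (0.0534) did not move with the rest. These values describe the libraries, which share their normalization, and carry no test. The closest other genes were sought with the group means kept, so these values include the differences between groups and do not compare with those above. Each is the highest over all genes tested outside the list. The gene with the most similar log2 CPM was Etnk2, an ethanolamine kinase, both for Ass1 (Pearson's r = 0.978 over 20 libraries) and for Asl (0.948). The closest gene was Larp1b for Cps1 (0.959), Cd302 for Otc (0.908), Adk for Arg1 (0.849), Hrg for Gls2 (0.931), Ngef for Hal (0.938), Zap70 for Sds (0.935), Eef2k for Cyp2f2 (0.803) and Vps39 for Cdh1 (0.796).

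**Figure D4:**
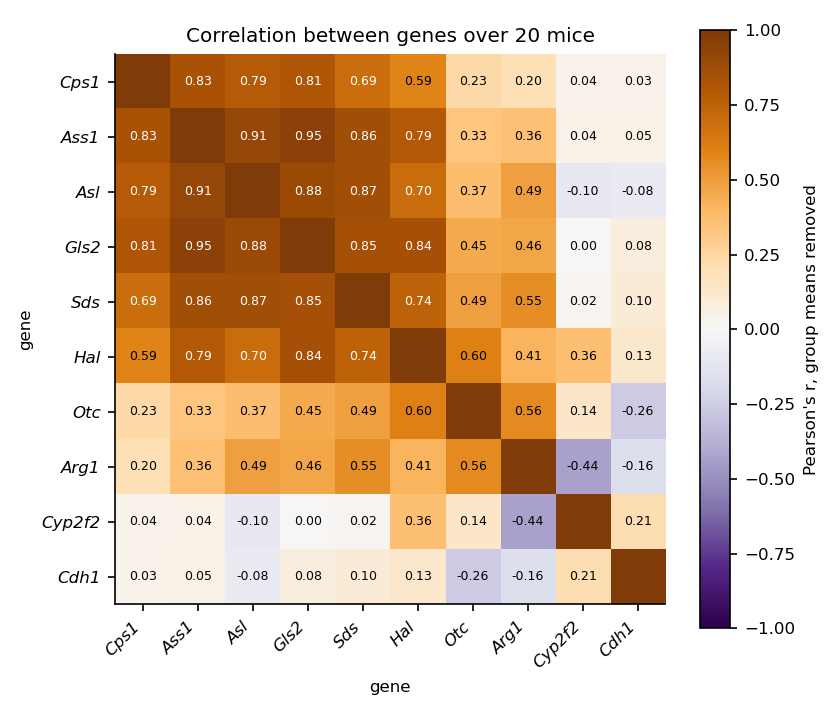
Pearson's correlation between the genes over the 20 mice after the mean of each group was removed, from -1 (purple) to 1 (brown). The first 6 genes form a block of 0.588 to 0.946, while Cyp2f2 and Cdh1 show values near 0 with most of the others.

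The other genes that supply nitrogen to the cycle were read from a list of 19, all tested. In Vec+BBR against Vec, 9 were lower and 2 higher, beside 7.88% and 7.58% of all genes tested, with a list median of -0.41. The lowest were Oat, the ornithine aminotransferase of pericentral cells (3064 ± 1581 CPM in Vec, 755 ± 196 CPM in Vec+BBR, log2 fold change -2.02), Got1, the cytosolic aspartate aminotransferase (469 ± 321 and 136 ± 44.0 CPM, -1.78), and Prodh, which oxidizes proline (341 ± 52.6 and 158 ± 17.8 CPM, -1.11). Nags, which makes the activator that Cps1 needs (66.1 ± 11.4 and 43.4 ± 3.62 CPM, -0.61), and Slc25a15, the ornithine carrier of the mitochondrion (309 ± 92.4 and 212 ± 13.8 CPM, -0.54), also fell, and these 2 are named here after their values were seen. With knockdown, 4 fell with BBR (Slc25a12 -0.85, Prodh -0.66, Gpt -0.44 and Slc25a13 -0.39) and 1 rose, and the list median was -0.08. Of all genes tested, 7.28% fell and 8.37% rose there. In shRNA against Vec, Slc25a12, a carrier that exports aspartate (0.76), and Odc1, which makes polyamines from ornithine (0.48), were higher and Glul, the glutamine synthetase of pericentral cells (-0.64), lower. Of all genes tested, 5.28% were higher and 7.91% lower there. In shRNA+BBR against Vec+BBR, Slc25a22 (0.72) and Prodh (0.47) were higher, beside 3.31% of all genes tested.

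Of 13 tested genes that break down histidine, serine, glycine and threonine, 4 fell in Vec+BBR against Vec and none rose, and these were Agxt, the alanine-glyoxylate aminotransferase (203 ± 107 and 72.7 ± 11.8 CPM, log2 fold change -1.48), Gcat (-0.53, a symbol with 2 entries, of which 1 was tested), Uroc1, the step after Hal (-0.44), and Shmt2 (-0.24). With knockdown 3 fell, namely Agxt (-0.82), Ftcd, the last enzyme of histidine breakdown (-0.53), and Gldc of glycine cleavage (-0.40). Of 32 genes for the breakdown of other amino acids, 18 fell in Vec+BBR against Vec and 1 rose, with a list median of -0.37. Of all genes tested, 7.88% fell and 7.58% rose in this comparison. Among the lowest were Acmsd of tryptophan breakdown (-2.12) and Hpd of tyrosine breakdown (3135 ± 1192 and 1164 ± 152 CPM, -1.43), and the gene that rose was Csad, which makes taurine (18.1 ± 10.1 and 98.6 ± 26.3 CPM, 2.44). With knockdown 9 fell and 2 rose, with a median of -0.23, among them Acmsd (-1.06), Hpd (-0.72) and Csad (1.52) in the same directions. Of all genes tested, 7.28% fell and 8.37% rose in shRNA+BBR against shRNA. The interaction called none of the genes of these 3 lists, beside 0.146% of all genes tested. In shRNA against Vec, 1 of the 13 genes was higher (Gldc, 0.66) and 3 were lower, among them Gcat (-0.55) and Shmt1 (-0.35), and of the 32 genes 1 was higher (Aass of lysine breakdown, 0.67) and 4 were lower, among them Pcbd1 (-0.45) and Ivd (-0.44), beside 13.2% of all genes called in either direction.

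Of 15 tested amino acid transporters, 6 fell in Vec+BBR against Vec and none rose, led by Slc43a1 for large neutral amino acids (-1.78), Slc16a10 for aromatic ones (-1.08) and Slc38a3, a glutamine transporter (1697 ± 371 and 929 ± 136 CPM, -0.87). With knockdown 4 fell, among them Slc43a1 (-1.24), Slc6a6 (-1.01) and Slc36a1 (-0.77). Of all genes tested, 7.88% fell in Vec+BBR against Vec and 7.28% in shRNA+BBR against shRNA. Of 18 genes for glucagon signalling and transcriptional control, 2 fell in Vec+BBR against Vec, Klf15, a factor that drives amino acid breakdown in fasting (145 ± 32.2 and 94.6 ± 12.6 CPM, -0.61), and the deacetylase Sirt3 (-0.48), which is near the share of all genes. With knockdown 2 fell, among them Crtc2, a CREB coactivator (-0.75). In shRNA against Vec, the glucagon receptor Gcgr (134 ± 10.3 and 97.3 ± 6.67 CPM, -0.46) and Cebpa (-0.45) were lower, and Gcgr was also lower with knockdown among the mice given BBR (-0.34). All values in these paragraphs are edgeR fits with an adjusted p under 0.05.

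These list counts moved without the low Vec libraries. In Vec+BBR against Vec, leaving out Vec replicate 3, alone or with replicate 5, gave 10 lower and 3 higher genes for nitrogen supply, 6 lower for histidine to threonine, 20 lower and 1 higher for other amino acids, and 8 lower for the transporters, with 1 transporter higher when both were left out. The control list had 3 lower and 1 higher without replicate 3 and 4 lower and 1 higher without both. The share of all genes called in either direction also rose, from 15.5% with all libraries to 19.3% without replicate 3 and 23.6% without both. Leaving out both gave, in shRNA against Vec, 3 lower and 1 higher genes for nitrogen supply, 6 lower and 0 higher for other amino acids, and 3 lower and 0 higher transporters, while the counts for histidine to threonine and for the control list were the same as with all libraries. Of all genes, 10.9% were called there without both, against 13.2% with all libraries. The interaction without both called 5, 1, 4, 2 and 0 genes of the 5 lists, all higher, and none without replicate 3 alone. Over all genes it called 2.64% without both and 0.209% without replicate 3.

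**Figure D5:**
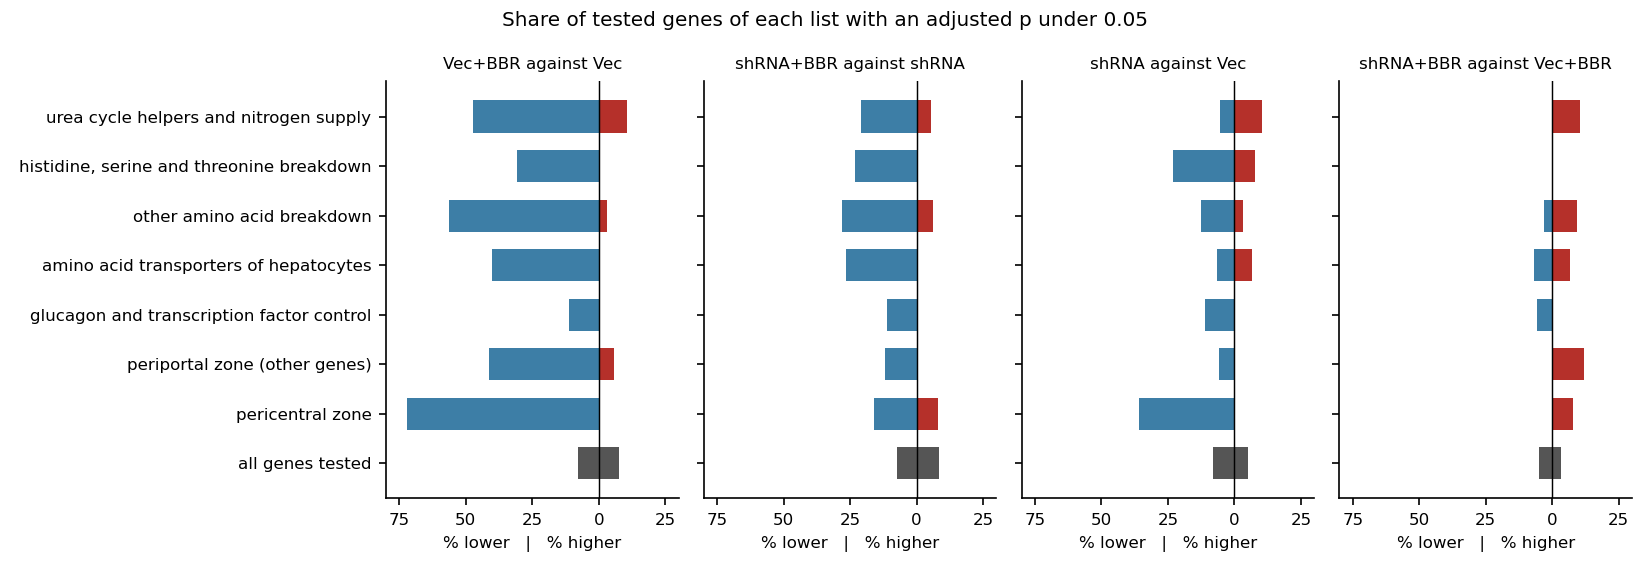
Share of the tested genes of 7 lists that passed in edgeR, lower to the left in blue and higher to the right in red, in the 4 comparisons, with all genes tested in grey. In Vec+BBR against Vec the lower share exceeds that of all genes (7.88%) in every list shown. It is near that of all genes for transcriptional control (2 of 18 genes) and highest for the pericentral zone (18 of 25).

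The lobule was read from genes of both zones. Of 17 other periportal genes, 7 fell and 1 rose in Vec+BBR against Vec (list median -0.24), with Serpina1c (-1.52), Etnppl (-0.97) and Ifitm3 (-0.89) the lowest and Hsd17b13, a protein of lipid droplets, the one that rose (298 ± 54.2 and 589 ± 55.1 CPM, 0.98). Of 25 pericentral genes, 18 fell and none rose, with a median of -0.67, and Cyp2c50 (2168 ± 644 and 380 ± 137 CPM, -2.51) and Cyp2c37 (592 ± 303 and 112 ± 41.3 CPM, -2.40) were the lowest. Of all genes tested, 7.88% fell and 7.58% rose in this comparison. The summed level of the pericentral list was 15478 to 26356 CPM in Vec and 10518 to 14779 CPM in Vec+BBR, without overlap, and that of the other periportal genes 24185 to 30792 and 17296 to 22403 CPM, also without overlap. Genes of both zones were thus among those that fell, and the periportal markers Cyp2f2 and Cdh1 were not. In shRNA+BBR against shRNA, 2 periportal genes fell and none rose, and 4 pericentral genes fell and 2 rose. There 7.28% of all genes fell and 8.37% rose. In shRNA against Vec, 9 of the 25 pericentral genes were lower, among them Cyp2e1 (9450 ± 2170 and 4282 ± 782 CPM, -1.14), and 1 of the 17 periportal genes (Fbp1, -0.81), beside 7.91% of all genes. In shRNA+BBR against Vec+BBR, 2 periportal genes, Ifitm3 (1.10) and Etnppl (0.94), and 2 pericentral genes, Cyp2c50 (1.32) and Slc22a3 (0.71), were higher, beside 3.31% of all genes. Without Vec replicates 3 and 5, the counts in Vec+BBR against Vec were 8 lower and 1 higher of the periportal genes and 19 lower of the pericentral ones. Of all genes, 23.6% were called there in either direction. The pericentral count of 9 lower in shRNA against Vec was 12 without replicate 3 and 14 without both, and the periportal count was 1 lower and 1 higher without replicate 3 and 2 lower and 1 higher without both. These fits called 10.4% and 10.9% of all genes in either direction. In the interaction, 1 of the 25 pericentral genes was higher (Tbx3, 0.86, adjusted p = 0.0292 in edgeR). None of the 17 periportal genes passed there, and 0.146% of all genes did. Without replicate 3, 2 pericentral genes were higher and 1 periportal gene lower, beside 0.209% of all genes. Without both, 11 pericentral genes were higher, and 3 periportal genes were higher and 1 lower, beside 2.64%.

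Markers of cell types were read as well, beside 7.88% of all genes that fell and 7.58% that rose in Vec+BBR against Vec. Of 9 hepatocyte markers, 3 fell in Vec+BBR against Vec (Ahsg, Serpina1b and Fgb), and their summed level was 138886 to 174747 CPM in Vec and 107090 to 148826 CPM in Vec+BBR. Of 8 tested cholangiocyte markers, Krt23 (1.38) and Spp1 (1.00) rose and none fell, the summed level of the 11 that are listed was 37.8 to 63.6 CPM in Vec and 71.4 to 120 CPM in Vec+BBR, and Cftr had at most 3 counts in every library. Of 8 endothelial markers 5 rose, or 3 without Vec replicate 3, with summed levels of 101 to 132 CPM and 135 to 170 CPM. With knockdown alone 4 of them were higher than in Vec, beside 5.28% of all genes, or 2 without Vec replicate 3 and 3 without both libraries. Of 12 macrophage markers 2 rose and 2 fell, with summed levels of 156 to 394 CPM and 216 to 343 CPM. In shRNA and shRNA+BBR the summed levels were 48.0 to 54.3 and 57.0 to 110 CPM for cholangiocytes, 134 to 179 and 131 to 176 CPM for endothelium, and 213 to 278 and 241 to 354 CPM for macrophages. A list of PPAR genes in fatty liver held Pparg itself, and Acadm and Ehhadh, of which the paper links Ehhadh potentially to PPARα. Plin2 (591 CPM), Ehhadh (550 CPM) and Acadm (480 CPM) had its highest Vec means, so its sum is no measure of PPARγ alone. It summed to 1451 to 2851 CPM in Vec and 2893 to 3195 CPM in Vec+BBR. The highest Vec value lay just below the lowest BBR value, and 8 of 10 tested rose. With knockdown the list summed to 1486 to 1720 CPM in shRNA and 2096 to 2598 CPM in shRNA+BBR, and 8 of 10 rose, beside 8.37% of all genes. Pparg, the target of the shRNAs, was among these 8 (log2 fold change 1.28, adjusted p = 0.0077 in edgeR). In Vec+BBR against Vec, 9 genes of this list rose without Vec replicate 3 and 10 without both libraries, and 3 of the macrophage markers rose in either case. These fits called 19.3% and 23.6% of all genes in either direction. Cidec of the PPAR list stood at 5.86, 5.59, 129.6, 6.95 and 34.1 CPM in Vec replicates 1 to 5 and at 129.2 to 214.6 CPM in Vec+BBR. For Cidec, Vec replicate 3, the lowest Vec mouse for 8 of the 10 genes, thus lay inside the range of the BBR mice. The part of these cells and genes in the values of the 10 genes was not tested.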

How the data were processed

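The data are bulk RNA-seq of 20 mouse livers in 4 groups of 5, taken from the labels, and libraries are treated as separate mice. Per the file headers, the authors deposited an expected count (reads assigned to genes, not normalized) and an FPKM value (scaled for length and depth) for each gene. The submitters' processing notes name the build mm10, and the aligner and counter are not given in the sources used here. Between 91.9% and 93.3% of the expected counts were whole numbers. Positions are those of GENCODE M21 (22255 identifiers matched, 43 did not).

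Counts were rounded, filtered by filterByExpr (minimum count 10, total 15) and scaled by TMM, which left 12342 genes. All 4 groups were fitted in edgeR 4.0.16 (R 4.3.3, limma 3.58.1) with no further term, and the quasi-likelihood test was used with Benjamini-Hochberg adjustment over all genes at 0.05. The fit was tested on simulated data. Exact permutation tests over 252 splits (scipy 1.17.1) compared CPM and were adjusted over 40 tests. FPKM served only to rank genes. Counting error is small beside the spread between mice for all genes but Cdh1, and p-values measure the spread between libraries. DESeq2 1.42.0, limma-voom, other scalings and filters, a replicate block and left-out libraries were the alternatives. No 2 libraries of the same group were duplicates, and libraries of different groups were not compared for this. The genes, the lists and the tests were chosen with earlier results of these data known. All 10 genes are named, with at most the 3 highest and 3 lowest called genes of a list in a comparison unless stated, and a few of them are not reported here.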

Additional observations from a re-analysis of the deposited data

Results flagged for a closer look

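Of the 40 combinations of a gene and a group, 3 held a mouse whose gap to its nearest neighbour took more than 0.71 of the range of its group of 5, which chance gives in about 1 in 20 groups. Arg1 stood at 1782 CPM in shRNA replicate 3, above 1500 to 1527 CPM in the other 4 mice (gap over range 0.904). Sds stood at 265 CPM in Vec+BBR replicate 5, above 153 to 176 CPM in the others (0.795), and without this mouse the difference of Sds between shRNA+BBR and Vec+BBR was 1.17 on the log2 scale. Cdh1 stood at 4.48 CPM in Vec+BBR replicate 2, above 1.71 to 2.12 CPM in the others (0.853), and without this mouse its difference between Vec+BBR and Vec was -0.59.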

How the results depend on the processing

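The count of 5 genes in Vec+BBR against Vec was 3 when only the 2 groups compared were fitted, with Gls2 and Sds lost, and 4 to 7 when a library was left out. Of all genes, 9.85% were called with only these 2 groups and 9.93% to 19.3% with a library left out, against 15.5%. In shRNA+BBR against shRNA the count of 2 was 4 with only the 2 groups compared and 1 to 4 with a library left out (1 without shRNA+BBR replicate 3, 4 without replicate 5). The share of all genes was 17.2% with only the 2 groups, 5.31% without replicate 3 and 20.3% without replicate 5, against 15.7%. In shRNA+BBR against Vec+BBR the count of 3 was 1 to 3 with a library left out, with 1 without Vec+BBR replicate 2 or 4 or shRNA+BBR replicate 2. Those fits called 4.9%, 5.09% and 4.32% of all genes, against 8.13%. In DESeq2 and with a replicate block, Cyp2f2 passed as well and no call was lost, beside 11.5% and 7.62% of all genes. Without Vec replicates 3 and 5 together, chosen after seeing the data, 1 gene passed in shRNA against Vec and 4 in the interaction, against 0 in each with all libraries. Of all genes, 10.9% and 2.64% passed in these fits. Over all genes the interaction called 330 genes in DESeq2, 331 without that pair and 5 to 122 with a library left out, against 18, and shRNA+BBR against shRNA called 661 without shRNA+BBR replicate 3, against 1932. Scaling by total counts moved the median of all genes to 0.13 in Vec+BBR against Vec and to -0.13 in the interaction. The cause was not tested.

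Replicate numbers were not taken as pairs in the main fit. The correlation of same-numbered deviations exceeded 0.1 in 1, 3, 0 and 0 of 5 pairs in the 4 comparisons. So few values cannot decide whether the mice were paired. A fit with a replicate block called 5, 3, 0 and 4 of the 10 genes in the order of the comparisons above and 0 in the interaction. Of all genes it called 14.2%, 14.7%, 12.1% and 7.62%, and 0.17% in the interaction.

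Signs turned only in differences that had not passed. In shRNA against Vec these were Ass1 (-0.17), Asl (-0.0599) and Sds (-0.014) without Vec replicates 3 and 5 and Arg1 (0.0547) with total counts, and leaving out single libraries gave -0.0205 to 0.28 for Ass1 and -0.12 to 0.025 for Arg1. Single libraries also gave -0.0197 to 0.0785 for Arg1 in shRNA+BBR against shRNA and, in shRNA+BBR against Vec+BBR, -0.023 to 0.14 for Gls2, -0.0588 to 0.209 for Hal and -0.12 to 0.57 for Cdh1. The interaction of Otc was -0.13 with total counts, -0.00362 with no filter and -0.0676 to 0.184 with a library left out. With the deposited FPKM in place of CPM, the direction of the 40 differences between group means was the same apart from Arg1 in shRNA against Vec (log2 ratio 0.0547 in FPKM and -0.0537 in CPM). Cdh1, with 31 to 114 counts, was the gene for which depth limited the precision.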
